A study of Arabidopsis thaliana with 3 samples.

Results

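Class I TCP genes are described here in dissected inflorescence meristems of Arabidopsis thaliana. The 10 genes TCP7, TCP8, TCP9, TCP14, TCP15, TCP19, TCP20, TCP21, TCP22 and TCP23 were taken by their locus numbers from the 32678 loci counted in each library, and all 10 were found in each of the 3 libraries. Every library came from wild-type Col-0, untreated, and held a pool of 10 inflorescences, so that the series is 1 group of 3 replicates with no contrast between conditions. Plants had 4 weeks of short days (8 h light) and then 2 weeks of long days (16 h light), buds older than the primordium stage P5 were taken off, and the tissue was frozen within 3 min. A level is thus an average over meristem, young primordia and any other cells of a pool, and fewer cells that express a gene cannot be told apart from less RNA per cell.

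TCP proteins are plant transcription factors with a basic helix-loop-helix type of DNA-binding domain, named after maize TEOSINTE BRANCHED1, snapdragon CYCLOIDEA and the rice PCF proteins. They bind DNA as pairs, and those of class I recognise the letters GTGGGNCC and site II elements, which occur upstream of cell cycle and ribosomal protein genes. Class II holds the CIN-type genes of leaf and organ growth and the CYC/TB1-type genes of branching and flower symmetry. In shoots, class I members such as TCP14 and TCP15 act in cell proliferation, internode growth and responses to gibberellin and cytokinin, and many members act redundantly.

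The 2 classes can be told apart in the DNA that codes for the basic region of the domain. The lines below give that stretch for 5 members, which are 2 pairs of close relatives (TCP14 with TCP15, the highest, and TCP21 with TCP7) and TCP23, the lowest, and for the class II genes with the highest level. The letters were read from TAIR10.1 (RefSeq), 5′ to 3′ on the coding strand. In class I, capitals mark the bases that were the same in all 10 members. In class II, capitals mark the bases without a counterpart in class I.
TCP14: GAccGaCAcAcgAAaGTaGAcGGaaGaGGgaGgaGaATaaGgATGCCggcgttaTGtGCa
TCP15: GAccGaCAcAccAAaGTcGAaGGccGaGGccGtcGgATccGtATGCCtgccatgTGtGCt
TCP21: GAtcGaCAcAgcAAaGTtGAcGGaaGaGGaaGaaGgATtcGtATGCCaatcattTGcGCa
TCP7: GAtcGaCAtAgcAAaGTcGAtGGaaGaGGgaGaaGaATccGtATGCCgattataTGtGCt
TCP23: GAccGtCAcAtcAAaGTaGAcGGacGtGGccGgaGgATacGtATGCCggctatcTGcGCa
TCP10: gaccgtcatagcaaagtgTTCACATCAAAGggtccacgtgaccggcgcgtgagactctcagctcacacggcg
TCP24: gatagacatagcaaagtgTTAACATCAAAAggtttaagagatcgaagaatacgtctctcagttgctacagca

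The TCP14 stretch lies at chr3:17559358-17559417 (plus strand), that of TCP15 at chr1:26216608-26216667 (plus strand) and that of TCP21 at chr5:2680924-2680983 (plus strand), each inside the single coding exon. TCP7 (chr5:7843137-7843196, plus strand) and TCP23 (chr1:13116897-13116956, minus strand) have it in the same place. The class II stretches are those of TCP10 (chr2:13221908-13221979, minus strand) and TCP24 (chr1:10629504-10629575, minus strand). All 11 class II genes carried 12 additional bases, or 4 codons, in this place, and 0 of the 13 class I genes did. Of the 60 bases of the class I stretch, 31 were the same in all 10 members. The remaining bases fell at the third codon position in 19 cases, the first in 7 and the second in 3.

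Aligned with MAFFT, the 10 proteins shared a block of 73 residues without a gap, of which 45 residues (61.6%) were the same in all. Identity over this block ran from 71.2% to 98.6% over the 45 pairs, with a median of 80.8%, whereas over all aligned residues it ran from 29.0% to 78.2%, with a median of 39.0%. The closest pair was TCP7 and TCP21, which differed in 1 residue of the block. TCP14 and TCP15 had 94.5% of the block in common, TCP22 and TCP8 90.4%, and the pairs TCP22 with TCP23 and TCP9 with TCP19 89.0% each. Proteins ranged from 239 residues in TCP21 to 489 in TCP14, the block being of 1 length in all. At the level of DNA the genes are distinct, since the longest run of bases shared by any 2 class I genes was 33 bases (TCP7 and TCP21), against reads of 100 bp.

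**Figure D1:**
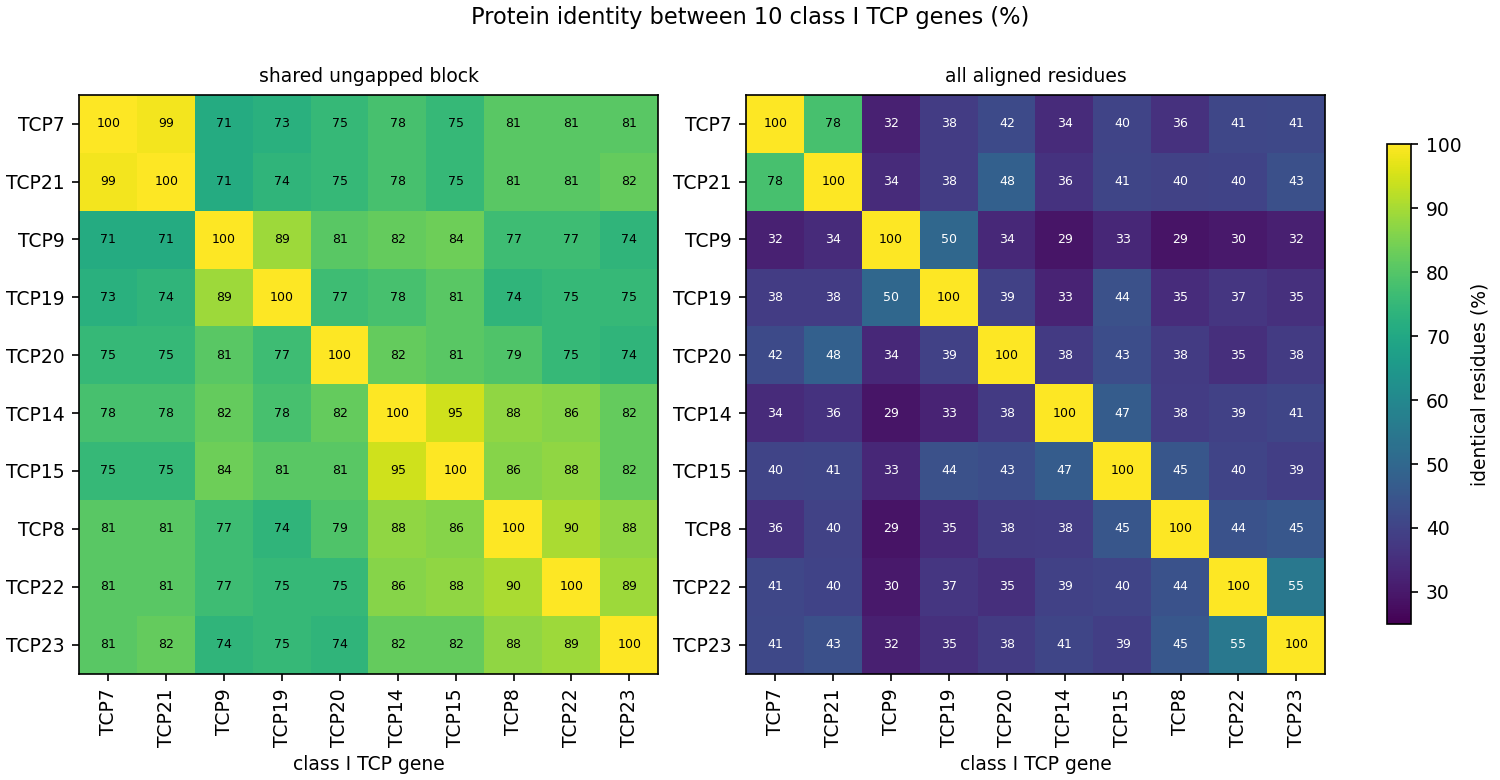
Percentage of identical residues between the proteins of 10 class I TCP genes, over the shared block of 73 residues (left) and over all aligned residues (right). Colour and number give the percentage, with 98.6% in the block for TCP7 and TCP21 and no pair below 71.2%.

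The libraries held 29094404, 28948463 and 27254114 counts in replicates 1, 2 and 3. CPM below is the count of a gene per 1000000 nuclear counts of its library. Genes are compared with each other by a TPM-like level, which is CPM divided by exon length and brought to 1 common sum. A gene was taken as expressed when every library reached 1 CPM for it. Defining genes of the labelled tissue were present. Of 6 meristem and floral meristem markers 5 were expressed, and so were all 3 floral organ genes AG, PI and AP3. The marker that did not pass was CLV3, at 0.688, 0.899 and 1.10 CPM in replicates 1, 2 and 3. The 4 tapetum markers summed to 104 CPM in replicate 1 and to 0.795 and 0.110 CPM in replicates 2 and 3, with MS1 and CYP703A2 at 0, and the 2 pollen markers summed to 2.72, 12.8 and 0.367 CPM. The green tissue gene RBCS1A stood far higher, at 3175, 2687 and 3276 CPM in replicates 1, 2 and 3. The root gene WOX5 had 0.413, 0.449 and 0.441 CPM.

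All 10 class I members were expressed, against 63.2% of the 26712 nuclear protein-coding genes. At 10 CPM in each library 9 of 10 passed, against 48.4% of all genes, and the exception was TCP23. Their median level was 45.1 TPM-like, beside 9.64 for all nuclear protein-coding genes and 25.6 for the expressed ones. Summed, the 10 genes stood at 370 TPM-like in replicate 1, 387 in replicate 2 and 343 in replicate 3. No single gene held more than 17.3% of that sum on average.

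TCP15 and TCP14 act on cell proliferation, which they promote in young internodes, and TCP15 is annotated in the control of endoreduplication. TCP15 (AT1G69690, chromosome 1, 26216009 to 26218071) had 2322, 2746 and 1781 counts, or 63.0, 75.5 and 52.4 TPM-like in replicates 1, 2 and 3. It was the highest of the 10 by its mean of 63.7 ± 11.6 TPM-like (SD, n = 3), and replicate 2 was its highest library and replicate 3 its lowest. TCP14 (AT3G47620, chromosome 3, 17558793 to 17561259), annotated in seed germination, had 2168, 2159 and 1694 counts, or 49.2, 49.7 and 41.7 TPM-like. Its mean was 46.9 ± 4.46 TPM-like, and replicate 3 was below the other libraries. TCP15 exceeded TCP14 in 3 of 3 libraries, the log2 ratio of TCP14 to TCP15 being -0.43 ± 0.15 (SD, n = 3). Uncorrected for length the distance was smaller, with means of 80.1 ± 14.8 CPM for TCP15 and 70.5 ± 7.16 CPM for TCP14, since the exons of TCP14 are longer (2467 against 2063 bases).

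TCP21 and TCP7, the pair with the most similar domain, did not have similar levels. TCP21 (AT5G08330, chromosome 5, 2680401 to 2681993) is known as CCA1 HIKING EXPEDITION, a repressor of the clock gene CCA1, and the reference lists it under the symbol TCP11. It had 1393, 1607 and 1148 counts, or 48.9, 57.2 and 43.8 TPM-like. TCP7 (AT5G23280, chromosome 5, 7842607 to 7844649), which acts on the cyclin gene CYCD1;1, had 886, 1230 and 762 counts, or 24.3, 34.2 and 22.7 TPM-like. Both were highest in replicate 2 and lowest in replicate 3, and their TPM-like ranges did not overlap. By TPM-like level TCP21 was 1.87-fold above TCP7. The log2 ratio of TCP7 to TCP21 was -0.90 ± 0.14 (SD, n = 3), with the same sign in 3 of 3 libraries. Without length correction, the means were 48.5 ± 6.72 CPM for TCP21 and 33.7 ± 7.77 CPM for TCP7. The CPM ranges overlapped, TCP7 reaching 42.5 in replicate 2 and TCP21 falling to 42.1 in replicate 3. Exons are longer in TCP7 (2043 against 1593 bases).

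TCP22, TCP8 and TCP23 form a further group of relatives, and the first of them were close in level. TCP22 (AT1G72010, chromosome 1, 27107558 to 27109275), which takes part in activating CCA1, had 1432, 1424 and 1309 counts, or 46.7, 47.0 and 46.3 TPM-like. This was the smallest spread among the 10, an SD of 0.799% of the mean. TCP8 (AT1G58100, chromosome 1, 21512332 to 21514189), a factor that binds site II elements and acts in salicylic acid synthesis, had 1500, 1310 and 1395 counts, or 45.2, 40.01 and 45.6 TPM-like. TCP23 (AT1G35560, chromosome 1, 13115824 to 13117235), annotated in flowering time, was the lowest of the 10 with 251, 258 and 255 counts, or 9.96, 10.4 and 10.99 TPM-like. TCP22 lay 4.47-fold above TCP23, its log2 ratio to TCP23 being 2.16 ± 0.08 (SD, n = 3), although the domain blocks of both are 89.0% identical.

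TCP19 and TCP9 were the pair whose ratio moved most between libraries. TCP19 (AT5G51910, chromosome 5, 21094547 to 21095891), which acts in leaf senescence together with TCP20, had 1218, 913 and 1100 counts, or 55.0, 41.8 and 53.9 TPM-like, and was lowest in replicate 2. TCP9 (AT2G45680, chromosome 2, 18820242 to 18821889), which like TCP8 acts on the salicylic acid synthesis gene ICS1, had 341, 530 and 319 counts, or 11.6, 18.2 and 11.8 TPM-like, and was highest in replicate 2. The ranges of these 2 genes did not overlap, and TCP19 was 3.68-fold above TCP9, but the log2 ratio of TCP9 to TCP19 was -2.25, -1.20 and -2.20 in replicates 1, 2 and 3. TCP9 overlaps the non-coding gene AT2G45685 on the opposite strand, which had 2, 9 and 9 counts, and TCP19 overlaps AT5G51915 on the opposite strand, which was not analysed here. The strand setting of the counting is not given in the sources used here, so that it is not known how reads of these overlaps were treated.

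TCP20 (AT3G27010, chromosome 3, 9957376 to 9958945), annotated as a regulator of cell cycle and ribosomal protein genes that binds the promoter of CYCB1;1, had 417, 335 and 330 counts. This corresponds to 15.7, 12.8 and 13.5 TPM-like, with replicate 1 above the others. It was at about the level of TCP9 (14 ± 1.52 and 13.9 ± 3.80 TPM-like, n = 3 each).

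**Figure D2:**
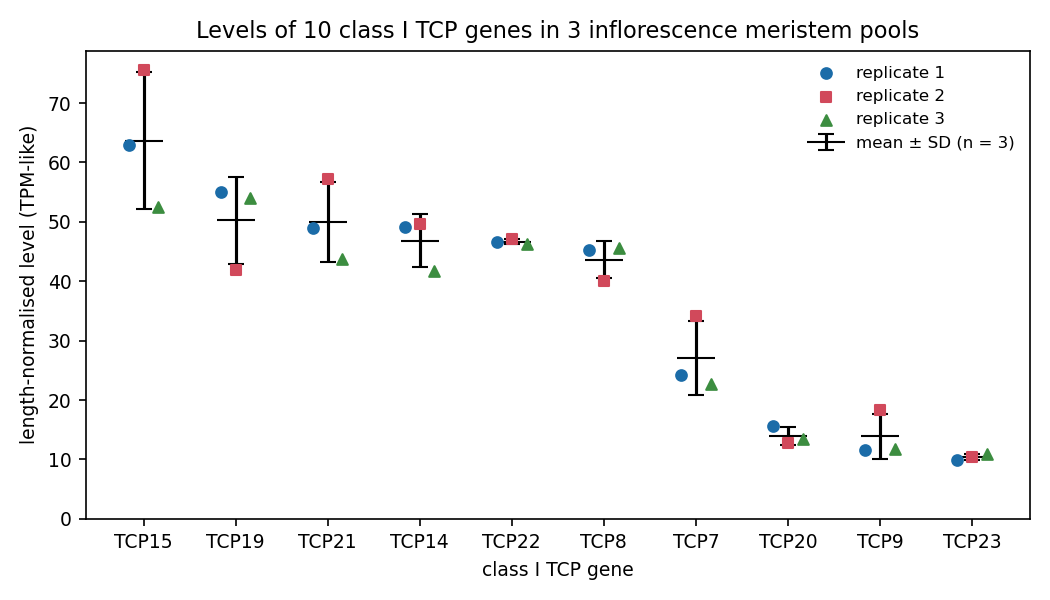
Length-normalised level (TPM-like, linear axis from 0) of each of the 10 class I TCP genes in replicates 1, 2 and 3, with the mean and SD. The 6 genes from TCP15 to TCP8 have means between 43.6 and 63.7, TCP7 stands at 27.0, and TCP20, TCP9 and TCP23 lie at or below 14.

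The order of the means was thus TCP15, TCP19, TCP21, TCP14, TCP22, TCP8, TCP7, TCP20, TCP9 and TCP23. Neighbours in this order were compared by their log2 ratio within each library, and were taken to differ beyond their spread when the ratio had the same sign in all 3 libraries and its mean was at least 2 SD from 0. Of the 9 pairs of neighbours, this held for TCP7 over TCP20, with a log2 ratio of 0.93 ± 0.43 (SD, n = 3). TCP8 lay above TCP7 in 3 of 3 libraries with ranges that did not overlap, but the mean ratio of 0.71 ± 0.42 was below 2 SD. The ratios of TCP22 over TCP8 (0.10 ± 0.12) and TCP9 over TCP23 (0.38 ± 0.38) had 1 sign in all libraries without reaching 2 SD. The other 5 ratios changed sign among the libraries. An exact two-sided sign-flip test over 3 libraries cannot give a p below 0.25, the value reached by each of the 4 pairs with a constant sign. The p-value of this test speaks only of how steadily a ratio kept its sign over these 3 pools. Nothing in the labels tells if the pools came from separate growth or dissection rounds, so that differences between them may be technical.

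The order also depended on the length used. Divided by coding length, TCP7 rose to place 4 and TCP19 went to place 5, and with no length correction TCP14 stood second and TCP19 sixth. By the means, TCP15 stayed first, and TCP20, TCP9 and TCP23 filled the last 3 places, under each of these settings and without any 1 replicate. Within replicate 3 alone, however, TCP19 (53.9 TPM-like) stood above TCP15 (52.4 TPM-like).

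Among 883 genes described as transcription factors, with the 10 included, TCP15 held rank 83, TCP19 rank 118, TCP21 rank 123, TCP14 rank 136, TCP22 rank 138 and TCP8 rank 159. TCP7 was at rank 245, TCP20 at 363, TCP9 at 365 and TCP23 at 414. The 3 such genes nearest to TCP15 by level over the 3 libraries were AT1G19960 (60.8, 67.6 and 55.3 TPM-like), the histone chaperone gene ASF1B (65.7, 63.6 and 57.4) and GATA1 (64.4, 66.6 and 63.0). Those nearest to TCP19 were AT5G05550 (55.4, 45.2 and 51.3 TPM-like), the floral glutaredoxin gene ROXY1 (50.2, 41.5 and 51.5) and AT2G46900 (51.5, 43.6 and 50.3). Likeness was the Euclidean distance of log2(TPM-like + 1) over only 3 libraries, and within the same distance lay 140 protein-coding genes for TCP15 and 36 for TCP19. Apart from the 10 members, genes entered the set when their reference description held the words transcription factor. It thus also holds genes such as ASF1B and ROXY1, and factors described in other words may be missing.

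Variation between libraries was next compared with that of genes of similar abundance, using edgeR's goodness-of-fit statistic over 18334 nuclear genes. None of the 10 members passed at an adjusted p of 0.05 (0 of 10, Benjamini-Hochberg), beside 2.52% of all genes. At an unadjusted p below 0.05 the count was also 0 of 10, beside 6.04% of all genes, and DESeq2 marked 0 of 10 as dispersion outliers, beside 1.38%. Set against Poisson counting error alone, 8 of 10 varied, beside 61% of all genes. The 2 that did not pass this looser test were TCP22 (edgeR, adjusted p = 0.883) and TCP23 (edgeR, adjusted p = 0.502). For these genes, spread beyond counting error was not detectable at this depth. With other scalings (DESeq2 size factors or library sizes alone) and with no filter the count stayed at 0 of 10, beside 2.5%, 2.48% and 2.48% of all genes. Without replicate 1, 2 or 3 it was also 0 of 10, beside 1.28%, 1.57% and 1.16%.

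Members departed from their own means in different directions in replicate 2. TCP9, TCP7, TCP15 and TCP21 were 0.43, 0.36, 0.26 and 0.20 log2 units above their means there, whereas TCP19, TCP20 and TCP8 were at -0.25, -0.12 and -0.12. These are differences within 1 library, and none of these genes passed the test of variation above. In all, 6 of 10 members were highest in replicate 2 on the TPM-like scale, beside 44.1% of expressed genes. Replicates 1 and 3 were highest for 2 members each, beside 29.7% and 26.2%. TCP7, TCP9, TCP15 and TCP21 remained highest there also as CPM and with TMM factors, while the highest library of TCP8, TCP14 and TCP22 changed with the scaling. Of the 6 meristem markers, STM (2853, 3640 and 3163 counts) and KNAT1 (2536, 4353 and 2560 counts) were also highest in replicate 2 as CPM. WUS, CLV3, LFY and AP1 were highest in replicate 3, and the floral organ genes AG, PI and AP3 were lowest in replicate 2. Highest in replicate 2 were further the phloem gene SUC2 (515, 717 and 293 counts) and the pollen gene VGD1 (75, 353 and 9 counts). Their part in the levels of the TCP genes was not tested.

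**Figure D3:**
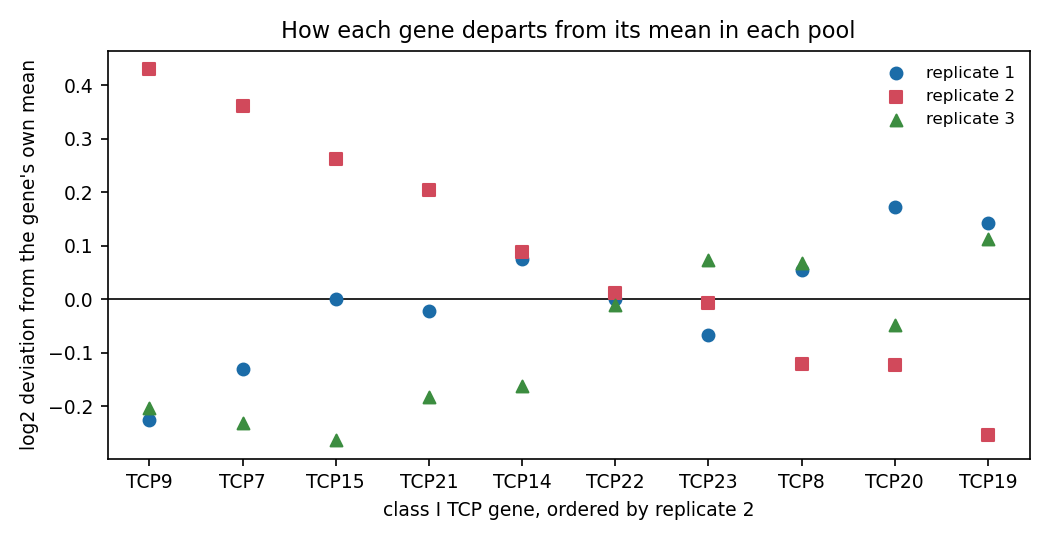
Log2 deviation of the TPM-like level in each library from the mean over the libraries, for 10 class I TCP genes ordered by replicate 2. Replicate 2 runs from 0.43 in TCP9 to -0.25 in TCP19, and TCP22 lies within 0.012 of 0 in each library.

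The remaining class I genes were low. AT2G37000 had 39, 53 and 28 counts (2.18, 3.00 and 1.70 TPM-like) and was expressed, below the lowest of the 10 in each library. AT5G41030, whose closest relative in the list is TCP20 (67.1% of the block), had 6, 4 and 1 counts, and TCP16, a gene of pollen development, had 0, 3 and 1. A count of 0 allows up to 0.103 CPM in replicate 1 (3 counts, counting error only).

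Of the 11 class II genes 7 were expressed, beside 63.2% of all protein-coding genes. The highest were the CIN-type genes TCP10 at 26.3, 34.8 and 33.0 TPM-like, TCP24 at 23.7, 29.5 and 23.8 and TCP2 at 18.6, 24.6 and 24.8, which put them near TCP7 and below the 6 highest class I genes in each library. Summed over 13 genes, class I stood at 369 ± 23.1 TPM-like, and over 11 genes class II at 108 ± 12.1 (SD, n = 3). The log2 ratio was 1.96, 1.71 and 1.64 in replicates 1, 2 and 3, with a mean of 1.77 ± 0.17 or 3.41-fold. It had the same sign in 3 of 3 libraries, and the exact two-sided sign-flip test gave p = 0.25, the smallest that 3 libraries allow. Per gene the ratio was 1.53, and without TCP15 it was 1.50.

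**Figure D4:**
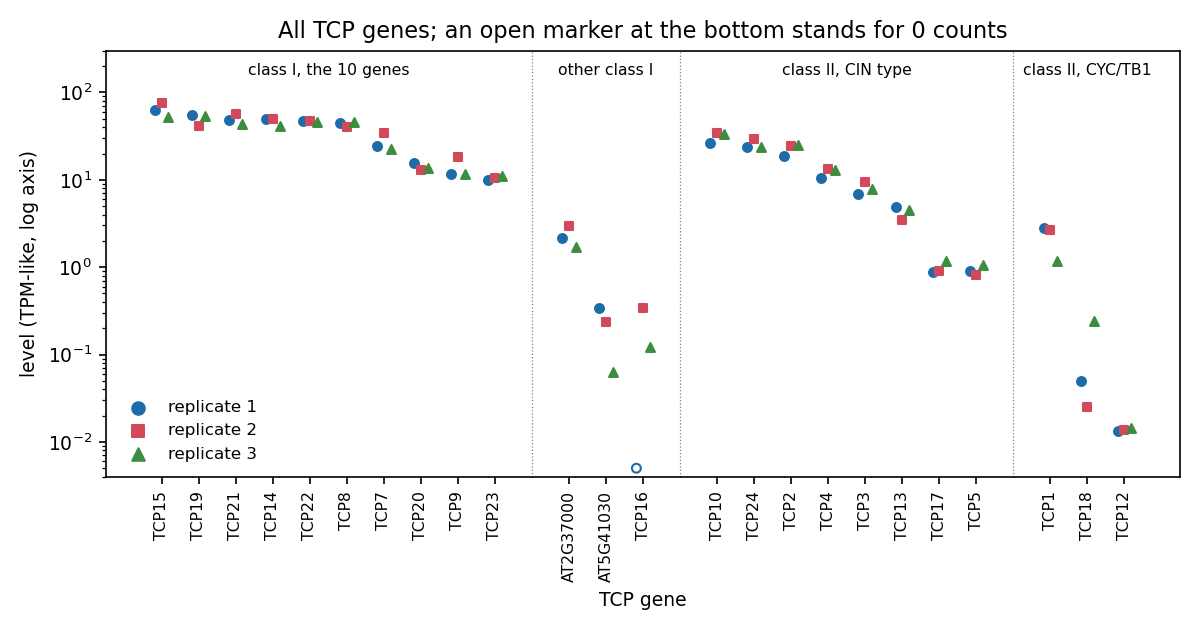
Level (TPM-like, log axis) of all 24 TCP genes in replicates 1, 2 and 3, grouped by class and ordered by mean within each group. The 10 class I genes span 9.96 to 75.5, the CIN-type genes reach 34.8 in TCP10, and the open marker is the library in which TCP16 had 0 counts.

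Genes of proteins known to bind class I TCP proteins were expressed in 20 of 20 cases, beside 63.2% of all protein-coding genes. Their median was 37.3 TPM-like, which is an RNA level, and protein amounts were not measured. The list was drawn up with earlier results of these data known. The highest were the corepressor gene TPL at 119 ± 9.44 TPM-like and RGA, the gene of a gibberellin-controlled DELLA repressor, at 89.4 ± 10.5 (n = 3 each). Next were the corepressor gene TPR2 at 74.9 ± 11.8 and SEC, an O-GlcNAc transferase gene, at 69.2 ± 4.24 (n = 3 each). SPY, an O-fucosyltransferase whose protein interacts with TCP14 and TCP15, stood at 41.3, 42.4 and 43.8 TPM-like. SRFR1, an immune regulator bound by several class I proteins, stood at 57.2, 53.8 and 63.4, and TOC1, the clock partner of TCP21, at 66.4, 56.6 and 66.7. RGA was above TCP14 and TCP15 in each library, with 84.6, 101 and 82.1 TPM-like, while the peptidase gene DA1, whose family acts on TCP14 and TCP15, was lower at 12.3 ± 0.666. In the test of variation 0 of these 20 passed, beside 2.52% of all genes tested.

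Genes known to be bound or regulated by class I TCP proteins were expressed in 11 of 14 cases, beside 63.2% of all protein-coding genes, in a list also drawn up with earlier results known. The cell cycle targets stood at 110 ± 9.44 TPM-like for the replication clamp gene PCNA2, 67.0 ± 4.07 for CYCA2;3, 49.4 ± 2.09 for CYCB1;1, 48.7 ± 4.40 for CYCD1;1 and 42.6 ± 5.37 for the retinoblastoma gene RBR1 (n = 3 each). CCA1, the target of TCP21 and of TCP22, had 16.6, 23.9 and 30.8 TPM-like in replicates 1, 2 and 3. It did not pass the test of variation (edgeR, adjusted p = 0.121). CCA1 was lowest in replicate 1 and highest in replicate 3, whereas TCP21 was highest in replicate 2 and lowest in replicate 3. TCP22 stood at 46.7, 47.0 and 46.3 TPM-like. Neither TCP21 nor TCP22 passed the test of variation, and a link of their levels to CCA1 was not tested. LOX2, a jasmonate synthesis gene bound by TCP20, ranged widely with 72.5, 137 and 223 TPM-like, and was the 1 gene of the 12 tested in this list that passed the test of variation (edgeR, adjusted p = 7.16e-05), beside 2.52% of all genes tested. The bHLH gene PRE6, a growth gene, stood at 49.9, 58.9 and 31.2. Below 1 CPM in at least 1 library were GA20ox1, a gibberellin synthesis gene, with 29, 70 and 30 counts, the growth regulator HBI1 with 6, 7 and 1 counts, and the auxin-responsive SAUR63 with 0, 13 and 0 counts.

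Promoter windows, from 250 bases before to 50 after the annotated gene start, were searched on both strands for GTGGGNCC and for TGGGCC, the site II core, which overlap where the open base is C. GTGGGNCC was found in 0 of the 10 class I members, beside 1.34% of 26711 windows of nuclear protein-coding genes. TGGGCC was found in 1 of 10, beside 15.7%, and that gene was TCP19, with 2 copies on the reverse strand. In the list of targets, GTGGGNCC was found in 3 of 14 windows (RBR1, CCA1 and ICS1) and TGGGCC in 5 of 14. Genes entered that list as bound or regulated by class I TCP proteins, so these counts cannot serve as evidence of such binding. The windows below show the letters in capitals with 16 bases on either side, for TCP19, for CCA1 as the target of TCP21 and for the 4 of the 5 cell cycle targets named above that held either set of letters. The window of CYCA2;3 held neither.
TCP19: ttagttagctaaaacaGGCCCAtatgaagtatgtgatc
CCA1: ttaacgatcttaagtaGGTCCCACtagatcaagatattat
RBR1: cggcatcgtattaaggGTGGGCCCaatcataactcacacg
CYCB1;1: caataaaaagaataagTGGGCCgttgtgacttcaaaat
PCNA2: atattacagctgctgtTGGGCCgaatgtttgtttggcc
CYCD1;1: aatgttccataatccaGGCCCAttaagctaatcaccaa

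In TAIR10.1 these windows are chr5:21095907-21095944 (minus strand) for TCP19, chr2:19245425-19245464 (plus strand) for CCA1 and chr3:3919371-3919410 (minus strand) for RBR1. Those of CYCB1;1, PCNA2 and CYCD1;1 are chr4:17624459-17624496 (minus strand), chr2:12651860-12651897 (minus strand) and chr1:26439410-26439447 (plus strand). The CCA1 letters stand 150 to 143 bases before the gene start and are GTGGGNCC read on the reverse strand. Across all genes, the share of windows with GTGGGNCC was 0.712% among genes that were not expressed, 1.35% in the lowest of 4 equal groups of expressed genes by TPM-like level and 1.92% in the highest. For TGGGCC the shares were 6.76%, 15.1% and 27%. These are counts of letters, and base composition and gene function were not taken into account.

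**Figure D5:**
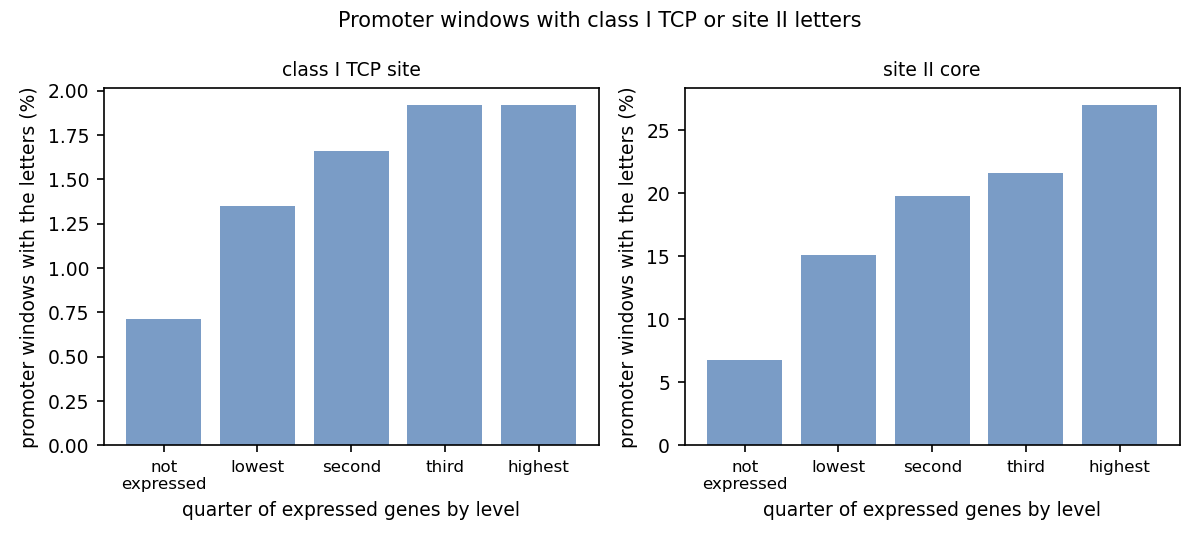
Percentage of promoter windows that hold the class I TCP site GTGGGNCC (left) or the site II core TGGGCC (right), for nuclear protein-coding genes that were not expressed and for 4 equal groups of expressed genes by TPM-like level. Bars rise from 0.712% to 1.92% on the left and from 6.76% to 27% on the right, and the 2 vertical axes differ in scale.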

How the data were processed

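RNA of 3 pools of dissected inflorescences was sequenced as paired reads of 100 bp from strand-specific libraries. The values the authors deposited are raw counts per locus, not normalised. Per the submitters' processing notes, the tools were HTSeq 0.6.1, TopHat2 2.1.0, Bowtie2 2.2.5 and FastQC, with the TAIR10 build; their settings, and the strand option of the counting, are not given in the sources used. Of 32678 loci, 31912 matched the RefSeq annotation of TAIR10.1, from which names, exon lengths and sequences come. Library sizes exclude the 279 organelle loci (29078107, 28933042 and 27236559 nuclear counts in replicates 1, 2 and 3).

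CPM, a TPM-like level (CPM per exon length, scaled to equal totals) and log2 ratios within libraries were computed. Variation was tested with edgeR 4.0.16 (TMM factors, filterByExpr, intercept-only fit, deviance over the dispersion trend, a chi-square statistic on 2 degrees of freedom, adjusted by Benjamini-Hochberg across 18334 genes). Tested on simulated data over 18334 genes, this step recovered 35 of 100 genes changed 2-fold in 1 library and 98 of 100 changed 4-fold. Changes were planted only in genes with a mean above 100 counts, and every simulated gene had the dispersion of the trend. The recovery thus does not cover genes with lower counts. DESeq2 1.42.0 gave an alternative. Proteins translated from the longest coding sequence were aligned with MAFFT 7.526.

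The members and lists were chosen with earlier results of these data known. Named are the 10 members, the other class I genes, the 3 highest class II genes, the 4 highest genes of each list and those below 1 CPM. For each of the 2 highest members, the 3 nearest genes described as transcription factors are also named. Further list genes (SPY, SRFR1, TOC1, DA1, CYCD1;1, RBR1, CCA1 and PRE6) and the libraries' markers were named after their values were seen. Intervals and floors cover counting error only.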

Additional observations from a re-analysis of the deposited data

How the results depend on the processing

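The number of expressed members was 10 at 0.5 CPM (beside 65.8% of all protein-coding genes), 5 CPM (54.9%), 10 counts (67.1%) and 1 TPM-like (63.7%) and without any 1 replicate, and 9 at 10 CPM (48.4%). The number that varied between libraries was 0 with DESeq2 size factors, with library sizes alone, with no filter, as DESeq2 dispersion outliers and without any 1 replicate, but 8 under Poisson variation alone (beside 61% of all genes), which leaves no room for spread beyond counting. Planted 2-fold changes in 1 library were recovered in 35 of 100 cases, all of them genes with a mean above 100 counts. Smaller differences between pools are thus mostly beyond the reach of 3 libraries. The order of levels was the least stable result. Of the 10 places, 4 were kept with coding length, 3 with no length correction and between 4 and 6 without 1 replicate. TMM scaling kept all 10, but 1 factor per library cannot change the order within a library. The log2 ratio of class I over class II kept its sign, from 1.50 without the highest class I gene to 2.63 for medians, with 1.68 to 1.84 without 1 replicate. Of 60 shares of single members in the summed level, 45 moved by less than 1 SD and 15 by more. All of these 15 moved under another length measure. The 45 include the 10 shares under TMM scaling, which could not move because the factor of a library cancels in a share. They also include all shares without 1 replicate. Leaving out 1 of 3 libraries cannot shift a mean by 1 SD of those libraries, so these shares tell nothing of stability. No paired analysis was possible because all libraries belong to 1 group.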
